A study of Homo sapiens with 7 samples.

Results

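Bivalent nucleosomes, here positions that carried H3K4me3 and H3K27me3 together, were examined in the human liver cancer cell line HepG2. A position was counted as bivalent when its identifier was in both the H3K4me3 and the H3K27me3 peak list, with or without H3K9ac or H3K27ac, and not in the H3K9me3 list. This gave 379 of 14217405 mapped nucleosome positions, or of 203848 positions with at least 1 of the 5 marks. These lists hold fewer marked positions than the study's text describes, so the counts, shares and ratios given here hold for the lists used and could differ with a longer set of calls. The data consist of 7 samples of HepG2, a liver tumour line that was freshly cultured with no treatment named, with 1 sample per assay: native MNase-Seq for nucleosome positions, ChIP-Seq for each of the 5 marks, and RNA-Seq with 2 runs. There are no replicates, no groups of samples and no test across samples. The intervals given below are exact Clopper-Pearson 95% intervals that cover counting error only, and positions close to each other on a chromosome are not independent. For a count of 0, the share said to be allowed is 3 counts of the total, which is lower than the exact upper limit. Read counts per position were not used here, so the depth behind each call is unknown.

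H3K4me3 is written by the Trithorax-related MLL and SETD1 complexes and is typical of the starts of active genes, while H3K27me3 is written by Polycomb repressive complex 2, with EZH2 or EZH1 as its catalytic subunit, and is typical of silent genes. The 2 marks together are called bivalent chromatin, which is best known at the promoters of silent developmental regulators in embryonic stem cells and is described as a poised state. Acetylation and trimethylation of lysine 27 use the same residue, so 1 histone tail cannot carry both. The marks come from separate immunoprecipitations of a cell population, and the labels list several antibodies for each mark. Whether both marks were on the same molecule, on the 2 tails of 1 nucleosome, or on different alleles or cells cannot be told apart.

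The hepatic label was checked against marker genes, with values in FPKM, fragments per transcript length and sequencing depth, given as run 1 and run 2. ALB was at 9933 and 10088 and AFP at 3732 and 3864, while the blood marker genes PTPRC and CD3E were listed at 0 in both runs and COL1A1, a fibroblast gene, was at 0.141 and 0.188. Genes of the enzymes that write the marks were expressed, with EZH2 at 17.0 and 15.4, SUZ12 at 20.4 and 20.9, EED at 12.3 and 12.8, and MLL at 8.26 and 8.59.

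To show the DNA in front of genes with bivalent starts, the promoters of 6 genes with 2 or more bivalent positions within 2 kb of the TSS are printed. They were taken among genes with a single RefSeq promoter. GCGR, CALY, FAM129A and MCOLN3 had 3 or 4 positions, while ATRNL1 and EGR4 were the first by alphabet of those considered with 2. Each line holds the 250 bases before the RefSeq start, 5′ to 3′ on the strand of the gene, in build GRCh38.p14, which is not the hg19 build of the nucleosome positions. Capitals mark every CG, the dinucleotide of CpG islands, which reads the same on both strands. The median over 27305 RefSeq promoters was 11 CG in 250 bases. A count of CG is a description of these windows, and no other motif was searched.
GCGR (chr17:81803900-81804149, plus strand): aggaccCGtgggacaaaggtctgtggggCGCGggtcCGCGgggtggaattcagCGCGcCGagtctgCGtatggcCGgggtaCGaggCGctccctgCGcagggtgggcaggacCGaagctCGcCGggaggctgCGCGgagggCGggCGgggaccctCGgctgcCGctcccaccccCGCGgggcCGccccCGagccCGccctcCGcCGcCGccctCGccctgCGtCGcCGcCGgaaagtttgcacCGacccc
CALY (chr10:133336897-133337146, minus strand): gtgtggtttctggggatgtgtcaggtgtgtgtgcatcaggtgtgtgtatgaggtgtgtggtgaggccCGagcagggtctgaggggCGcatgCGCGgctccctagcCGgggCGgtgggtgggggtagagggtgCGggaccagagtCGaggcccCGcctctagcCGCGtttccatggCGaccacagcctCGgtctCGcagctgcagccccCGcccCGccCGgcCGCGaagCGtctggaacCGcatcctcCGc
FAM129A, NIBAN1 in RefSeq (chr1:184974509-184974758, minus strand): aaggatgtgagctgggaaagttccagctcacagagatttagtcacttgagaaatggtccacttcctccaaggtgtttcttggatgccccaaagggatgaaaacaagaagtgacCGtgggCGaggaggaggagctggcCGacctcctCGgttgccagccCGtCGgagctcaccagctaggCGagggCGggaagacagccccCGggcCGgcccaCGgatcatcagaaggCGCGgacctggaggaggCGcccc
MCOLN3 (chr1:85048501-85048750, minus strand): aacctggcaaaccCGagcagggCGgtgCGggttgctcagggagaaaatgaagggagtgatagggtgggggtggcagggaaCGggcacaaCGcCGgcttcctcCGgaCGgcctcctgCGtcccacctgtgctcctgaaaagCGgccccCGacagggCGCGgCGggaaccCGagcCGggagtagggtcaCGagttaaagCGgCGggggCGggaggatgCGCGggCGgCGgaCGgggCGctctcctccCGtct
ATRNL1 (chr10:115093115-115093364, plus strand): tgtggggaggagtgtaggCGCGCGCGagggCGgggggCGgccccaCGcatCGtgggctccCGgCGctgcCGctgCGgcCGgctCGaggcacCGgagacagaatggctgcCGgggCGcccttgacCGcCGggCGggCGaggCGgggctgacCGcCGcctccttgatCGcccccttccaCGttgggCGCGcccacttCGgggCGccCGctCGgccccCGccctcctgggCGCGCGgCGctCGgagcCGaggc
EGR4 (chr2:73293549-73293798, minus strand): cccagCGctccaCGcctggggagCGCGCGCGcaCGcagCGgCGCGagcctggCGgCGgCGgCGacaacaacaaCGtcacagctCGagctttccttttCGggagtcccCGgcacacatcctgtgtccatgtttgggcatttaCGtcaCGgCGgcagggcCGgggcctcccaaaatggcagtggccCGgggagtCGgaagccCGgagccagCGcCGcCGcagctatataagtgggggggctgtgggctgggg

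All 6 windows held more CG than the median promoter. GCGR had 36 CG and ATRNL1 had 39, counts reached by 4.73% and 2.51% of all RefSeq promoters. EGR4 had 28, MCOLN3 27 and CALY 22, counts reached by 15.5%, 17.3% and 27.6% of promoters, and FAM129A had 14, reached by 44.7%. GC content ran from 61.2% in FAM129A to 80% in ATRNL1.

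How common bivalent nucleosomes were was first asked against each mark on its own. The 379 positions made up 0.442% of the 85714 H3K4me3 positions (interval 0.399 to 0.489) and 1.44% of the 26271 H3K27me3 positions (1.30 to 1.59). With the 9 positions that also carried H3K9me3, 388 positions held both marks, against 158 that independent placement over all positions would give, a ratio of 2.45. Within 2 kb of a TSS, where H3K4me3 is dense, 198 positions held both marks against 294 for independent placement, a ratio of 0.674. Beyond 2 kb the count was 190 against 87.3, a ratio of 2.18. Only TSS of named genes with coordinates of their own were used, so starts of other genes can count as beyond 2 kb. With the TSS of all named loci, 236 of the 379 bivalent positions were within 2 kb, and with the TSS used here 196. The ratio was thus above 1 over the genome and beyond 2 kb of these TSS, and below 1 near them. These ratios describe the rule's own marks and were not tested.

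Most bivalent positions carried no acetylation. H3K4me3 and H3K27me3 without any other mark were found on 221 positions (58.3%, 53.2 to 63.3), H3K9ac was added on 148 (39.1%), and H3K9ac with H3K27ac on 10 (2.64%). No position of the 379 carried H3K27ac without H3K9ac, which allows a share of up to 0.792%. These acetyl marks were not used to choose the positions.

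H3K9ac and H3K27ac thus differed widely on bivalent nucleosomes. H3K9ac was on 158 of 379 positions (41.7%, 36.7 to 46.8), against 68.0% of the 85184 positions with H3K4me3 and no H3K27me3 (67.7 to 68.3) and 0.492% of the 25020 positions with H3K27me3 and no H3K4me3 (0.409 to 0.586). The bivalent share lay between the other sets, closer to the H3K4me3 set. H3K27ac was on 10 of 379 bivalent positions (2.64%, 1.27 to 4.80), against 54.7% and 0.0520% in the same 2 sets. Among positions with H3K9ac, H3K27ac was present on 6.33% of the bivalent ones (3.08 to 11.3) and on 73.8% of the H3K4me3 ones (73.4 to 74.1). H3K27me3 was also paired with each acetyl mark over all positions. H3K9ac and H3K27me3 met on 298 positions against 142 for independent placement, and H3K27ac and H3K27me3 on 27 against 177. These counts include the 158 and 10 bivalent positions given above, so they are not a separate result. Within 2 kb of a TSS both counts were below independent placement, with 119 against 229 (a ratio of 0.519) for H3K9ac and 6 against 183 for H3K27ac.

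Since bivalent starts belonged mostly to weakly expressed genes, acetylation was also compared within classes of expression, over positions within 2 kb of a TSS. Beside genes with an FPKM below 0.1, H3K9ac was on 32 of 99 bivalent positions (32.3%, 23.3 to 42.5) and on 438 of 1358 positions with H3K4me3 alone of the 2 (32.3%, 29.8 to 34.8). From 0.1 to 1, the shares were 53.0% of 66 (40.3 to 65.4) and 49.5% of 2091 (47.4 to 51.7). The H3K9ac intervals overlapped in both of these classes. Beside genes with an FPKM of at least 1, H3K9ac was on 17 of 31 bivalent positions (54.8%, 36.0 to 72.7) and on 74.7% of 31661 positions of the other set, above the upper end of the bivalent interval.

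For H3K27ac the bivalent share was lower in each class. It was 2.02% below an FPKM of 0.1 (2 positions, 0.246 to 7.11) against 11.4% (9.77 to 13.2), and 3.03% from 0.1 to 1 (2 positions, 0.369 to 10.5) against 24.4% (22.6 to 26.3). At an FPKM of at least 1 it was 0 of 31, which allows up to 9.68% (exact upper limit 11.2%), against 60.2%. In all 3 classes the intervals of both sets did not overlap.

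**Figure D1:**
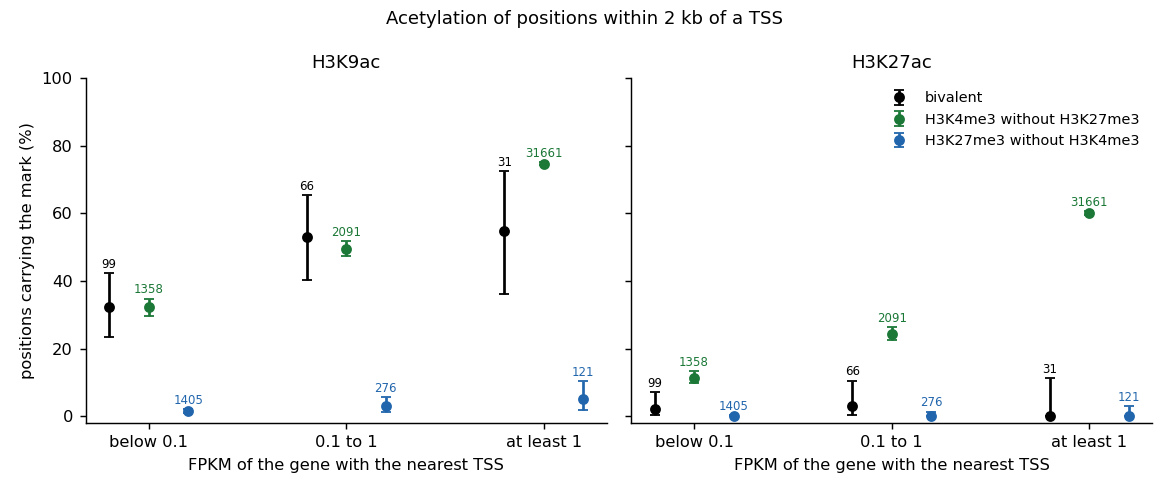
Share of nucleosome positions within 2 kb of a TSS that carried H3K9ac (left) or H3K27ac (right), in percent, by the FPKM of the gene with the nearest TSS. Points are bivalent positions (black), H3K4me3 without H3K27me3 (green) and H3K27me3 without H3K4me3 (blue), bars are exact 95% intervals and numbers are positions; the bivalent H3K9ac shares of 32.3% and 53.0% lie beside those of the green set in the 2 lower classes, while the bivalent H3K27ac shares are at most 3.03%.

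The 10 bivalent positions with H3K27ac were spread over 9 chromosomes. Of them, 4 were within 2 kb of a TSS of a gene with coordinates of its own. These were at +276 bp of INTS4L1, +471 bp of APCDD1, +775 bp of CLEC18A and +1145 bp of FIGNL2, where a plus sign means downstream. APCDD1 encodes an inhibitor of Wnt signalling and was at 0.111 FPKM (mean of runs). INTS4L1 and FIGNL2 were at 0 and 0.759, and CLEC18A, which has near-identical copies that make its value uncertain, at 0.0192. The others lay within 10 kb of FAM78B, PFKFB3, A2M, RBM26, GRAMD2, and GAP43 with LSAMP. All of these loci except GRAMD2 share coordinates with another locus and so have no TSS here. The position near A2M lay inside the A2M locus, and that near FAM78B lay 166 bp from the FAM78B locus. Near A2M, the gene of the plasma protease inhibitor alpha-2-macroglobulin, and PFKFB3, a regulator of glycolysis, there were 2 further H3K27ac positions within 1 kb and no other H3K27me3 position. Near CLEC18A it was the reverse, with 2 further H3K27me3 positions and no other H3K27ac.

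Where bivalent nucleosomes lie was then asked by the distance to the nearest TSS, taken from 13289 named genes with coordinates of their own. Of the 379 positions, 196 were within 2 kb of a TSS (51.7%, 46.6 to 56.8), against 41.2% of the H3K4me3 set (40.9 to 41.5) and 7.20% of the H3K27me3 set (6.88 to 7.53). The nearest 1 kb held 166 of them (43.8%). The median distance was 1616 bp, against 9626 bp and 98930 bp in the same sets. Of the 196, 155 were downstream of the TSS (79.1%, 72.7 to 84.6), compared with 77.6% and 67.1%, and their median place was +369 bp. A further 87 positions were more than 100 kb from a TSS of this gene set (22.96%, 18.8 to 27.5), against 16.1% and 49.8%. Inside a named locus lay 261 positions (68.9%), against 75.3% and 35.2%. Loci with shared coordinates have no TSS here, so a position far from these TSS can still be near a named locus. Within 10 kb of a named locus lay 333 positions (87.9%), against 91.2% and 45.8%.

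**Figure D2:**
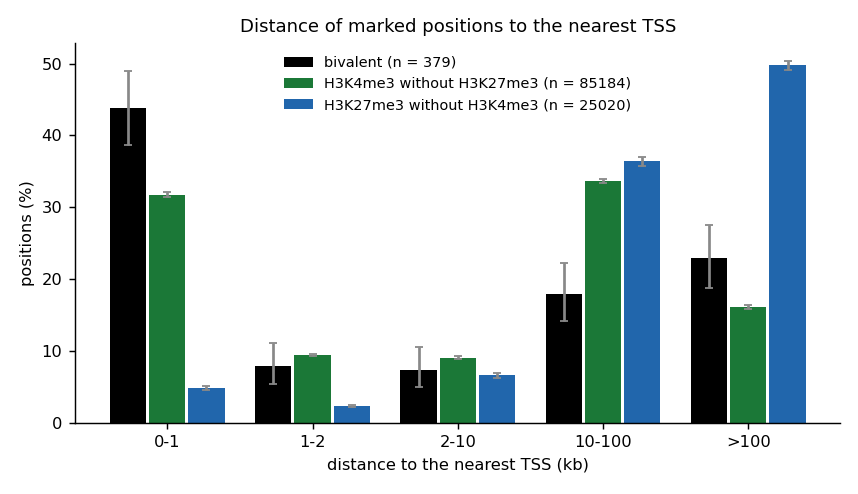
Share of positions, in percent, by distance to the nearest TSS in kb, for bivalent positions (black), H3K4me3 without H3K27me3 (green) and H3K27me3 without H3K4me3 (blue), with exact 95% intervals. The black bar is the tallest in the first kb at 43.8%. Beyond 100 kb of a TSS of the 13289 genes used lie 22.96% of bivalent positions.

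By chromosome, 38 bivalent positions were on chromosome 2, 37 on chromosome 1 and 3 on chromosome 20. As a share of H3K27me3 positions these were 2.04%, 1.78% and 1.56%, beside 1.44% over all chromosomes. Where a bivalent position was found, the share ran from 0.460% on chromosome 13 (0.150 to 1.07) to 3.44% on chromosome 22 (1.66 to 6.23). No bivalent position was found among the 45 H3K27me3 positions of chromosome Y, which allows up to 6.67%. On chromosome 2, 10 bivalent positions lay between 90 and 93 Mb, from base 90413192 to 92028166 in hg19, next to the centromere. They were 10 of 37 H3K27me3 positions there (27.03%, 13.8 to 44.1), with 34 H3K4me3 positions among 4328 listed. None had a named locus within 10 kb. The stretch was chosen after its positions were seen, so this share is a description only, and how well reads map there was not checked. 5 of these 10 carried H3K9ac and none H3K27ac.

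The neighbours of bivalent nucleosomes were examined next, leaving out the position itself. Another H3K4me3 position lay within 1 kb of 270 of 379 (71.2%, 66.4 to 75.7), with a mean of 1.71 ± 1.56 (SD over 379 positions), against 95.2% in the H3K4me3 set and 2.53% in the H3K27me3 set. Another H3K27me3 position lay within 1 kb of 209 (55.1%, 49.98 to 60.2), with a mean of 1.03 ± 1.23, against 1.17% and 20.0%. Bivalent positions had fewer H3K4me3 neighbours than the one set and more H3K27me3 neighbours than the other. Both marks were used to choose the positions, and other bivalent positions count as neighbours, so this is a description and was not tested. A neighbour of each mark was found for 153 (40.4%), H3K4me3 without H3K27me3 for 117 (30.9%), H3K27me3 without H3K4me3 for 56 (14.8%), and neither for 53 (14.0%). H3K9ac was within 1 kb of 41.2% and H3K27ac within 1 kb of 5.80%, against 89.5% and 81.6% in the H3K4me3 set. H3K9me3 was within 1 kb of 10 positions (2.64%).

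On the 758 positions listed directly before or after a bivalent one, no mark was the most frequent state (326), followed by H3K4me3 alone (150), H3K27me3 alone (77), a second position with H3K4me3 and H3K27me3 (63), H3K4me3/H3K9ac (53) and H3K4me3/H3K9ac/H3K27me3 (47). The trivalent mark H3K4me3/H3K9ac/H3K27ac was on 7 (0.923%), whereas it was on 40.9% of the 170367 positions adjacent to the H3K4me3 set. Both defining marks fell with distance on either side: about 200 bp downstream in genome order, 47.2% of positions carried H3K4me3 and 28.5% H3K27me3. At 1000 bp both were at 5.43%, and at 2000 bp they were at 1.04% and 0.260%. Of the bivalent positions, 88 (23.2%) overlapped another listed position, against 27.3% of the H3K4me3 and 40.9% of the H3K27me3 set, and such overlapping positions can share fragments.

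**Figure D3:**
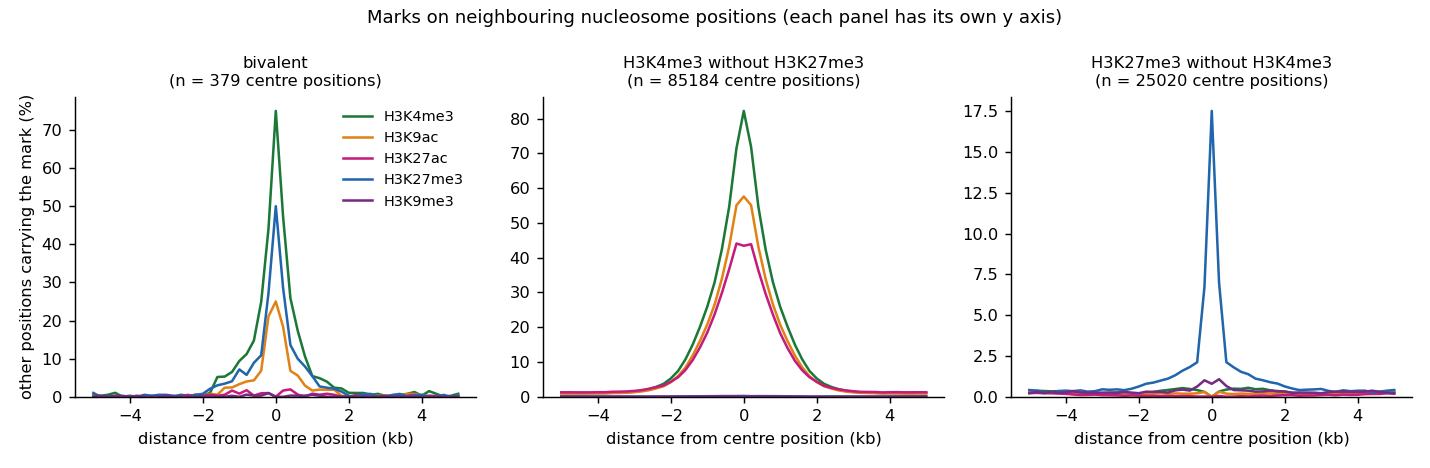
Share of other nucleosome positions carrying each mark, in percent, by distance from the centre position in kb in 200-bp bins, for the 3 sets; the middle bin holds only overlapping positions, and each panel has its own vertical axis. Around bivalent positions H3K4me3 and H3K27me3 are both raised and fall to about 1% or less by 2 kb, H3K9ac is lower, and H3K27ac stays below 2%.

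Bivalent positions up to 1 kb apart were joined into 316 clusters. Of these, 269 held a single bivalent position, 34 held 2, 11 held 3, 1 held 4 and 1 held 5. The 110 positions in the 47 clusters with more than 1 had another bivalent position within 1 kb, which was not always the next listed position. Coordinates below are in hg19.

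The largest cluster was at chr5:321874-322661, inside the overlapping loci of AHRR, which encodes the repressor of the aryl hydrocarbon receptor, and PDCD6, a calcium-binding protein of cell death and vesicle transport. Its 5 bivalent positions spanned 788 bp and none carried an acetyl mark. Of 16 listed positions within 1 kb, 7 carried H3K4me3 and 5 H3K27me3, so every H3K27me3 position there was bivalent. These loci share their coordinates in the table, so FPKM cannot be assigned to 1 gene with confidence: the locus on the minus strand named AHRR was at 0 and 0.0314 FPKM, and the locus on the plus strand named AHRR,PDCD6 at 54.4 and 55.3.

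The second cluster lay at the start of GCGR, the glucagon receptor gene, at chr17:79762297-79762971, with bivalent positions centred at +356, +536, +731 and +891 bp of the TSS. The first pair also carried H3K9ac and the second pair did not. H3K9ac with H3K4me3 and no H3K27me3 was on the next marked position upstream. GCGR was at 0.174 and 0.1001 FPKM. In hepatocytes this receptor is known to raise glucose output.

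3 bivalent positions were found in each of the next clusters. At PROM1, the gene of the stem cell surface protein prominin 1 (chr4:16084332-16085533), they were at +447, +719 and +1509 bp, the nearer pair with H3K9ac, and the gene was at 2.36 and 1.997 FPKM. At PRDM6, a repressor of the PR domain family (chr5:122424937-122426101), none was acetylated and 6 of the 14 positions within 1 kb carried H3K27me3; the loci named PRDM6 were at or below 0.0763 FPKM. At EFHD1, a mitochondrial calcium-binding protein (chr2:233497837-233498813), they were 27139 to 27976 bp downstream of the listed TSS, within the locus, and the gene was at 0.431 and 0.634 FPKM. At NRCAM, a neuronal cell adhesion molecule (chr7:108095362-108096273), they were at +696, +1296 and +1468 bp, unacetylated, with 0.530 and 0.483 FPKM. H3K27ac was absent from the listed positions within 1 kb of all 6 clusters.

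**Figure D4:**
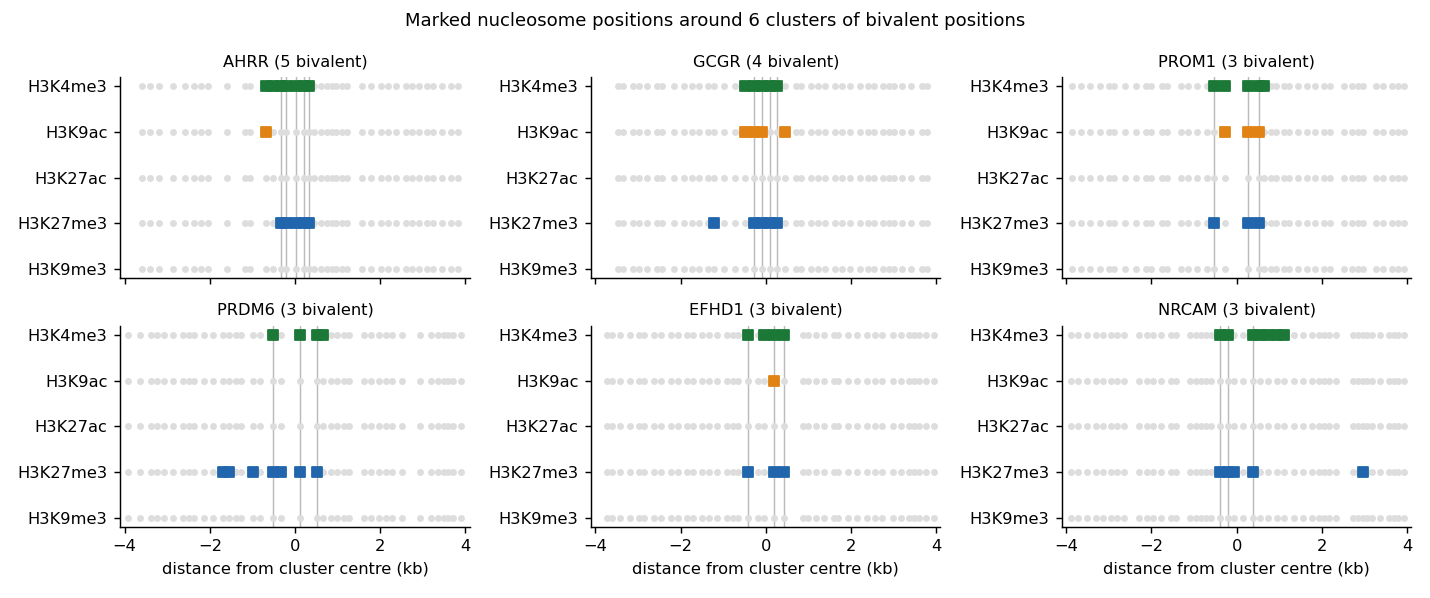
Listed nucleosome positions (grey dots) and marked positions (coloured squares, 1 row per mark) within 4 kb of the centre of 6 clusters with named loci, by distance in kb in genome order; vertical lines are the bivalent positions. The AHRR panel has 5 bivalent positions and the GCGR panel 4, and no panel has an H3K27ac or H3K9me3 square.

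Further genes had 3 bivalent positions just downstream of the TSS. FAM129A, a stress-response gene, had bivalent positions at +241, +423 and +671 bp, the first pair with H3K9ac, and 0.0529 and 0.0605 FPKM. MCOLN3, a lysosomal cation channel, had them at +13, +483 and +608 bp, the last with H3K9ac, and 0.0392 and 0 FPKM. CALY, a neuronal vesicle protein, had them at +1386, +1769 and +1896 bp, the last pair with H3K9ac, and 0.0348 and 0.0420 FPKM. The promoters of these genes are printed above. NELL2, a secreted neural glycoprotein gene, also had 3 within 10 kb, the nearest 37500 bp from the listed TSS, and was at 0.0413 and 0.155 FPKM. C8orf47 had 3, the nearest at +469 bp, with 0.0812 and 0.189 FPKM, and the overlapping loci of FAM167A and TDH had 3 without acetylation, with at most 0.153 FPKM.

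Expression near bivalent nucleosomes was asked for in 2 ways, by loci within 10 kb and by the TSS. Within 10 kb of 333 bivalent positions there were 419 named loci, 1.89% of 22113, of which 350 had 1 position, 49 had 2 and 20 had 3 or more, and 46 positions had no named locus that near. Their median FPKM was 0.133, with 0.114 in run 1 and 0.136 in run 2. An FPKM of at least 1 was reached by 112 (26.7%, 22.6 to 31.2), where 51.3% of all named loci reached it, and 197 were below 0.1 (47.0%, 42.2 to 51.9), where 36.6% of all were. Of the 419 loci, 185 share their coordinates with another locus, so their FPKM is uncertain. The choice of loci by nearness used no expression values.

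Loci with both marks within 10 kb but on no common position had a median of 1.48 FPKM, and 53.0% of 4011 reached an FPKM of 1. Loci with H3K4me3 but not H3K27me3 had a median of 7.67 (11875 loci, 75.3%), and loci with H3K27me3 but not H3K4me3 a median of 0 (2470 loci, 2.15%). The bivalent loci lay between the last 2 classes. Just inside the 10 kb limit were PNMAL2, at 9735 bp with 0.179 and 0.0532 FPKM, and FOXR1, at 9991 bp and listed at 0. Just outside, at 10376 bp, were SPATS2 with 10.01 and 10.2 and LOC100335030 with 0.315 and 0.110. ASGR2, a highly expressed hepatocyte receptor gene at 175 and 168 FPKM, had its nearest bivalent position 545 kb away, and RTTN, at 3.66 and 3.90, had it 6190 kb away.

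At starts, 164 of 13289 genes (1.23%) had a bivalent position within 2 kb of the TSS. Their median was 0.0910 FPKM, 24 reached an FPKM of 1 (14.6%, 9.61 to 21.0), where 47.6% of all genes did, and 85 were below 0.1 (51.8%, 43.9 to 59.7), where 41.5% of all were. The 237 genes that had both marks within 2 kb on separate positions had a median of 0.0988 and 45 genes at 1 or more (19.0%, 14.2 to 24.6), an interval that overlaps that of the bivalent genes. Genes with H3K4me3 only had a median of 9.65 (6796 genes, 85.1%), and genes with H3K27me3 only 0.00797 (859 genes, 3.73%). So the level of expression was low where both marks were near the TSS, also when no single position held them. Genes with 1 bivalent position (137) had a median of 0.0851 and genes with more (27) a median of 0.135.

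**Figure D5:**
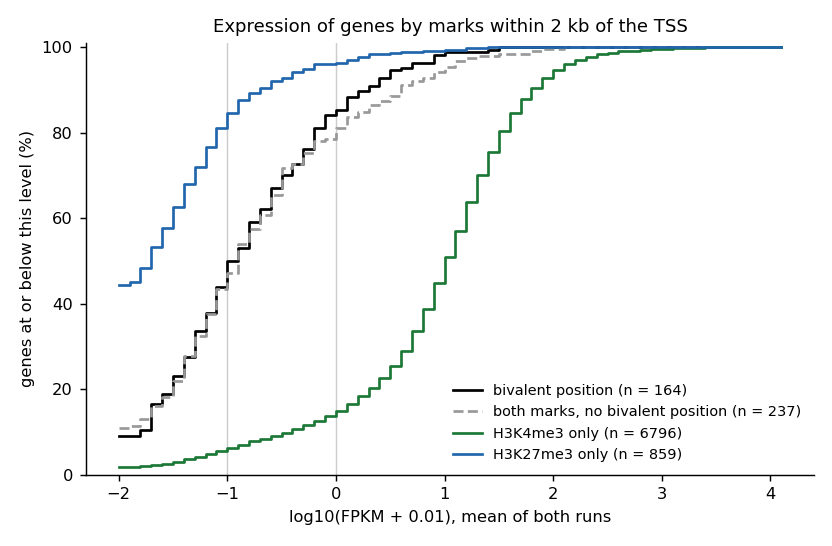
Cumulative share of genes, in percent, by log10(FPKM + 0.01), mean of both runs. Black is genes with a bivalent position within 2 kb of the TSS, and dashed grey is genes with both marks on separate positions. Green is H3K4me3 only and blue is H3K27me3 only. Thin grey vertical lines mark 0.1 and 1 for FPKM with the pseudocount of 0.01 added. The black and dashed lines lie close together, with medians of 0.0910 and 0.0988, between those of the other classes.

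The 24 expressed genes with bivalent starts reached at most 28.8 FPKM, in run 1 of BMI1, which encodes a subunit of Polycomb repressive complex 1. BMI1 was at 28.8 and 28.3 and had a single bivalent position, at +1245 bp with H3K9ac, among 3 H3K4me3 positions. The next were C4orf48 at 20.4 and 21.7, ARHGEF7, an exchange factor for small GTPases, at 9.03 and 8.998, AKAP12, a kinase anchoring protein, at 7.999 and 7.29, LPPR1 at 7.18 and 7.62, and SIRPA, an inhibitory receptor for CD47, at 7.23 and 6.26. Further members were STEAP2, a metalloreductase, at 2.93 and 2.85, PHLDA2, an imprinted growth regulator, at 3.10 and 3.01, and TMPRSS2, a membrane serine protease, at 1.05 and 1.12.

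Few bivalent starts also had the trivalent mark. At least 1 position with H3K4me3/H3K9ac/H3K27ac and no H3K27me3 lay within 2 kb of the TSS of 8 of the 164 genes. These were BMI1, CCDC136, LPPR1, PHLDA2, SHC3, SIRPA, STEAP2 and TMPRSS2. Of these 8, 7 reached an FPKM of 1, with CCDC136 the exception at 0.0631 and 0.0725. Their median was 2.97. Of the 156 without such a position, 17 reached an FPKM of 1 (10.9%, 6.48 to 16.9) and the median was 0.0823. The 156 include INTS4L1, APCDD1, CLEC18A and FIGNL2, whose position with H3K4me3, H3K9ac and H3K27ac also carried H3K27me3. These genes were at 0, 0.111, 0.0192 and 0.759 FPKM. With only 8 genes the interval of the first share runs from 47.3% to 99.7%. Among the genes with H3K4me3 only, 5660 of 6796 had a trivalent position. Among the genes with both marks on separate positions, 29 of 237 had one, so a low count was not particular to bivalent starts.

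Loci near bivalent positions with and without H3K9ac were compared by FPKM. Named loci within 10 kb of the 158 acetylated positions (191 loci) had a median of 0.257 FPKM and 33.0% reached an FPKM of 1 (26.4 to 40.1), against 0.0820 and 20.9% (16.0 to 26.4) for the 254 loci near the 221 positions without H3K9ac. Of these loci 26 were near positions of both kinds and count in both groups, and the intervals overlapped slightly. For the gene with the nearest TSS within 2 kb, medians were 0.186 and 0.0679, and 14 of 75 and 13 of 99 genes reached an FPKM of 1, again with intervals that overlapped. Here too, genes with positions of both kinds, such as GCGR, count in both groups. The share within 2 kb of a TSS was 53.2% with and 50.7% without H3K9ac. Another H3K9ac position lay within 1 kb of 59.5% of the acetylated and of 28.1% of the other positions.

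The loci with several acetylated bivalent positions within 10 kb differed in level. ACP1, a phosphatase gene, was at 143 and 148 FPKM, and SH3YL1 and FAM150B, whose loci have the same coordinates and the same positions, were at 6.45 in both runs and at 0.133 and 0.228. DPY19L2P2, a pseudogene whose reads can be shared with its copies, was at 2.03 and 1.97. GNG12, a G protein gamma subunit, was at 0.664 and 0.534, and MDFIC, an inhibitor of MyoD family factors, at 0.335 and 0.256. SLCO5A1, an organic anion transporter family gene, was at 0.0463 and 0. Both of the bivalent positions at each of these loci carried H3K9ac, and none carried H3K27ac.

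The loci with the highest FPKM within 2 kb of a bivalent position were mostly loci that share coordinates, 7 of the 10. A2M was at 1045 and 1025, NCRNA00188, a snoRNA host, at 393 and 401, and PDIA6, a protein disulfide isomerase of the endoplasmic reticulum, at 308 and 310. All 3 share coordinates with other loci. PKM2, pyruvate kinase, was at 214 and 208 with coordinates of its own, but its bivalent position was 1557 bp beyond the end of the locus and at +352 bp of GRAMD2, a gene at 0.0377 FPKM. The nearest TSS of this position was thus that of the other gene. C14orf166 at 94.8 and 93.1 and ESPN, an actin-bundling protein of hair cells, at 23.9 and 24.3 also share coordinates, while LEPR,LEPROT, a locus of the leptin receptor and its overlapping transcript, was at 27.7 and 27.9.

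Gene lists of developmental and other functions were counted against the 1.89% of all named loci that had a bivalent position within 10 kb. Of 325 developmental transcription factors, 27 had one (8.31%, 5.55 to 11.9), of which 2 reached an FPKM of 1 (SOX5 and FOXN3, both in loci with shared coordinates) and 16 were below 0.1. The median of the 27 was 0.0806 FPKM and that of the whole list 0.0231. Of 148 signalling ligands and antagonists, 10 had one (6.76%, 3.29 to 12.1), none of which reached an FPKM of 1. In both lists the share lay above that of all loci.

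Other lists were near or below it. Ion channels and neurotransmitter receptors had 5 of 294 (1.70%, 0.554 to 3.92), and cadherins, ephrin and guidance receptors 3 of 121 (2.48%, 0.514 to 7.07). Hepatocyte secreted proteins had 1 of 83 (A2M), and the genes of the Polycomb and H3K4 methyltransferase machinery had 1 of 46 (BMI1). Cytosolic ribosomal proteins and proteasome subunits, the list with the highest median at 607 FPKM, had 0 of 123, which allows up to 2.44%.

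Among the transcription factors, RUNX2, the regulator of bone formation, had 3 bivalent positions within 468 bp and was at 0.00946 and 0.0212 FPKM. Its locus shares coordinates with MIR586, listed at 0, and with SUPT3H, a subunit of a transcription coactivator complex, at 20.45 and 27.2 FPKM, so the same 3 positions count for all of them. SOX2, a factor of pluripotent and neural cells, had 2 positions, both with H3K9ac, and was at 0.157 and 0.337, and its locus shares coordinates with SOX2OT, at 0.0218 and 0.0244. SOX6, a regulator of cartilage and muscle fates, had them at +942 and +1095 bp, the nearer with H3K9ac, at 0.759 and 0.768 FPKM. SP8, a limb and brain factor, and LHX9, a LIM-homeodomain factor of gonad and limb, had 2 each without acetylation, at 0.0276 and 0.0318 and at 0.0213 and 0 FPKM. The LHX9 positions were upstream of the TSS, at -534 and -704 bp.

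The homeobox genes DLX5, EMX1, GSC and GSC2 and the forkhead gene FOXD1 had 1 unacetylated bivalent position each. For DLX5, a regulator of bone and craniofacial development, it was 2 bp from the TSS and the gene was at 0.0618 and 0.108 FPKM. For GSC, a gene of the gastrula organizer, it was at +409 bp with 0 and 0.0152, for its relative GSC2 at +605 bp with 0 in both runs, and for FOXD1, a factor of kidney stroma, at +1170 bp with 0.0743 and 0.156. EMX1, a cortical factor, had it at +4240 bp and reached 0.601 and 0.863. All 5 stayed below an FPKM of 1.

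The signalling genes were BDNF, DKK3, FGF13, FGF18, FSTL1, IHH, NRG2, SEMA5B, WNT2B and WNT5A. For WNT5A, a ligand of noncanonical Wnt signalling, the position was at +720 bp with 0.0198 and 0.0219 FPKM, and for FGF18, a ligand of skeletal growth, at +599 bp with 0.0380 and 0.0222. The hedgehog ligand gene IHH, whose locus shares coordinates with another, had an acetylated position 628 bp away, with 0.349 and 0.332 FPKM. FSTL1, a secreted antagonist, had 2 positions within 2 kb of the TSS and was at 0.342 and 0.404. All 10 had a mean FPKM below 1.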

How the data were processed

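HepG2 cells gave 7 samples, 1 for each assay: a nucleosome map, 5 histone marks and RNA. The authors found nucleosome positions with DANPOS and assigned marks to them with NUCLIZE, which kept peaks with 4 or more extra reads, 4-fold or higher enrichment, and P and FDR no higher than 0.01. They deposited positions and peaks as hg19 coordinates with an identifier, without scores or read counts, so depth is unknown and a stricter threshold could not be set. Per the submitters' processing notes, BWA, TopHat2 2.1.0, Bowtie, HOMER 4.7 and edgeR were used, with no role given here. The authors deposited expression as FPKM in 2 runs, whose nature as separate cultures is not given in the sources used here. Their own comparison columns (fold change, p-value and q-value) were not used.

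Marks were joined to positions by identifier, which failed for 0 peaks. The members and gene lists were chosen with earlier results of these data known. TSS came from 13289 named genes with coordinates of their own on chromosomes 1 to 22, X and Y, and their strand was read from how loci are numbered along each chromosome. Of 8436 with a RefSeq strand, 8405 had the same. Genes with shared coordinates, such as SOX2, have no TSS here. A locus was near if its interval lay within 10 kb of a position's midpoint. Expressed meant a mean FPKM of at least 1. Below 0.1 was called low. Counts of 0 have a limit of 3 counts of the total. Named loci were the 15 with the most bivalent positions, the 10 with the highest FPKM within 2 kb, up to 10 developmental transcription factors, up to 10 near acetylated positions, those at the edge of 10 kb and genes shown in the study. Genes named beyond these, in the gene lists, among expressed bivalent starts and for H3K27ac, were chosen after their values were seen. Promoters were matched by symbol to RefSeq (GRCh38.p14). Promoters on chromosome 8 were not considered for printing. Only 124 of 164 genes with a bivalent start had one (75.6%, under the 80% required), so a check of CG content between gene classes is void. No hg19 sequence was used. Scripts ran in Python 3.11.15 with numpy 2.4.6, pandas 2.3.3 and scipy 1.17.1, and were tested on simulated positions. Alternatives changed the overlap, windows, loci and FPKM limits.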

Additional observations from a re-analysis of the deposited data

Results flagged for a closer look

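H3K9me3, which the definition of bivalent positions leaves out, was found on 9 positions together with H3K4me3 and H3K27me3 (2.32% of 388, 1.07 to 4.36). They were marked for a closer look because they lay outside the comparisons and exceeded the 3 counts that an observation of 0 allows. Whether this share is raised against other H3K27me3 positions was not tested. Of the 9, 3 carried H3K4me3, H3K27me3 and H3K9me3 alone, 3 also H3K9ac, and 3 all 5 marks. Loci within 10 kb were CELF2, MKRN3, LAMA2, GPR173, PLEKHA2, NECAB1 with TMEM55A, and ODZ3, and 2 positions had none. The position near MKRN3, an imprinted gene silent on the maternal copy, carried all 5 marks.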

How the results depend on the processing

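Of 48 alternatives for 9 results, 30 stayed within 1.5 times the count or within the interval of the share or median. Positions with the 2 marks alone numbered 221. The share within 2 kb of a TSS was 43.8% within 1 kb, 62.3% with the TSS of all named loci and 66.5% with either end of any locus. The share with another H3K4me3 position was 64.9% within 500 bp and 65.5% with 1 position per cluster. That with another H3K27me3 position was 44.1% within 500 bp, 61.5% within 2 kb and 46.2% with 1 position per cluster. The median FPKM was 0.447 within 50 kb and 0.384 without loci under 0.01. The share of loci at an FPKM of 1 or more was 19.2% within 2 kb, 21.5% within 5 kb, 42.7% within 50 kb, 20.1% for loci with coordinates of their own, and 35.0% without loci under 0.01. With a limit of 0.1 or 5 FPKM it was 53.0% or 16.2%. These windows and limits change what is counted by construction. The 5 alternatives for the H3K27ac share, all chosen after seeing the data, gave 2.70% to 3.35%, and 291 positions were counted without those that overlap another. Joining marks by an overlap of 1 bp gave 484 positions. No paired analysis was possible because each assay has 1 sample. No replicate could be left out, and run 1 alone and run 2 alone gave median FPKM of 0.114 and 0.136. Without read counts, small shares near starts of expressed genes rest on few positions.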
